A study of Gallus gallus with 144 samples.

Results

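Promoter peaks wider than 100 bp made up 290 of the 24969 promoter peaks in a map of transcription start sites from 6 chicken tissues, and they named 288 of the 10437 genes with a labelled promoter. The members were chosen by 2 values of the deposited list, the authors' promoter label and the width of the peak, so width is described here and not tested. The whole list held 153662 peaks. Capped 5′ ends of RNA were mapped by CAGE, cap analysis of gene expression, in brain, breast, heart, kidney, leg and liver of 24 birds, each of which gave all 6 tissues. The birds were labelled Fast growing or Slow growing, 12 of each, which makes 12 groups of 12 libraries. A single list of peaks, in GRCg6a coordinates, stands for the whole series and carries neither levels by library nor peak heights. A peak may thus come from any tissue or bird, there are no replicates, and growth types and tissues are not compared; breed, age and sex are not stated in the labels used here. Intervals below are 95% Wilson intervals and cover counting over peaks or genes only, since neither are replicates.

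A CAGE peak is a run of neighbouring start sites on 1 strand. Vertebrate promoters are commonly described as sharp, with starts focused near a TATA box, or broad, with starts spread over a CpG-rich stretch. In the peak caller named for this list, decomposition-based peak identification, a broad cluster of starts may be divided into several narrow peaks or kept as a wide one. The width of a peak therefore depends on the caller as well as on where transcription starts.

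The wide promoter peaks ranged from 101 to 742 bp, with a median of 177.5 bp and quartiles of 132 and 248.75 bp. The other 24679 promoter peaks had a median of 9 bp and quartiles of 5 and 15 bp. Wide peaks were 1.16% of promoter peaks (interval 1.04 to 1.30) and 17.5% of the base pairs that promoter peaks covered, 62371 of 356624 bp. Of the 128693 unlabelled peaks, 0.207% were wider than 100 bp. There were 97 members of at most 150 bp, 115 over 200 bp, 54 over 300 bp, 20 over 400 bp and 10 over 500 bp. Plus-strand members numbered 139 and minus-strand members 151. Widths ran through the limit without a gap. The members just inside it were SGK1 at 101 bp and G0S2, LAMA1, MYH1D and XPNPEP1 at 102 bp, and the promoter peaks just outside it were PLAU and PLCD1 at 100 bp, CELF5 and PTPN5 at 99 bp and DST at 98 bp.

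**Figure D1:**
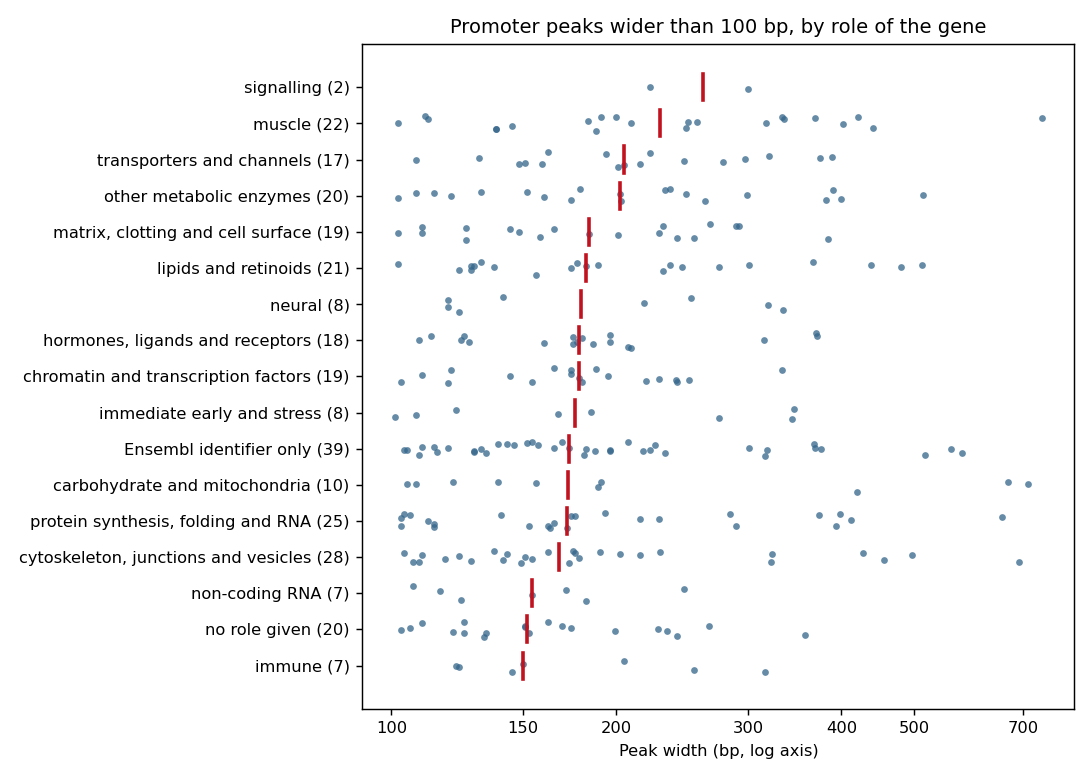
Width of each of the 290 wide promoter peaks (bp, log axis), 1 point per peak, by role of the gene it names, with the number of peaks in parentheses and the median as a red line. Medians of the roles lie between 150 and 261 bp, and the muscle genes run from 102 to 742 bp.

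Of the 288 genes, 249 carried a name other than an Ensembl identifier, and 229 of these were sorted by their known role. The sorting was done after the names were seen and is a description. The roles were broad. The groups with the most peaks were the cytoskeleton, junctions and vesicles (28 peaks), protein synthesis, folding and RNA (25), muscle (22) and lipids and retinoids (21). Roles were given to member genes only, so no share over all labelled genes stands beside these counts. Median widths differed little beside the spread within each group, from 150 bp for 7 immune genes to 228.5 bp for 22 muscle genes among the groups of more than 2.

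Muscle genes held the widest promoter peak of the list. DES encodes desmin, the intermediate filament that ties muscle fibrils together, and its peak was 742 bp (chr7:22174463-22175204, minus strand). It was the only promoter peak of the gene, as for every other of the 30 widest members except EHD2, NPPA, HTRA1 and LRP2, with its representative position 17% of the way in from the 5′ end. MYBPHL, a myosin-binding protein, had 441 bp (chr26:1020208-1020648, minus strand), and NPPA, the atrial natriuretic peptide made by heart muscle, had 421 bp (chr21:5577964-5578384, plus strand). FABP3, the fatty acid-binding protein of heart and muscle, had 402 bp (chr23:706807-707208, minus strand), and MB, the oxygen store myoglobin, 369 bp. The Z-disc gene LDB3 had 335 bp. The 3 ubiquitin ligase genes of muscle breakdown, TRIM55, TRIM63 and FBXO32, had 333, 317 and 248 bp. RRAD, a small GTPase, had 256 bp. PACSIN3, a membrane-bending adaptor, had 209 bp, ANKRD2, an ankyrin repeat protein of stretched muscle, 200 bp, HHATL 191 bp and the small heat shock gene HSPB2 188 bp. CSRP3, the muscle LIM protein, and TMOD4, which caps thin filaments, had 138 bp each. TNNI1, slow skeletal troponin I, had 112 bp.

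Fast myosin heavy chain genes of chromosome 18 gave 4 of the 22 muscle peaks. MYH1E had 249 bp, MYH1C 183 bp, MYH1A 145 bp and MYH1D 102 bp. These genes are close copies of each other, and how reads that fit several copies were treated is not given in the sources used here, so their separate widths are uncertain.

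Cytoskeletal, junction and vesicle genes came with both very wide and moderate peaks. EHD2, a membrane-shaping protein of caveolae, had 692 bp (chr32:228039-228730, plus strand), with 3 further narrow promoter peaks of 12 to 19 bp between 79 and 222 bp downstream. BICD2, an adaptor of the motor dynein, had 497 bp (chr12:7298475-7298971, minus strand), and the dynein heavy chain gene DYNC1H1 323 bp. CTNNB1, the beta-catenin of cell junctions and Wnt signalling, had 456 bp (chr2:43385852-43386307, plus strand). DSP, the desmosome protein desmoplakin, had 428 bp (chr2:64561107-64561534, minus strand). NEFL, the light neurofilament chain, had 322 bp, and ANXA1 and CALD1, binding membranes and actin, had 215 and 202 bp. The genes of actin and cell shape with narrower members were LASP1 (175 bp), FSCN1 (123 bp), CAPZA1 (118 bp), BAIAP2 (109 bp) and IQGAP2 (107 bp). Tubulin and keratin genes were TUBB6 (141 bp), TPPP3, a tubulin-binding protein (149 bp), KRT24 (178 bp) and KRT7 (143 bp). Vesicle and trafficking genes were FEZ1 (176 bp), VAMP1 (173 bp), ITSN2 (151 bp), RAB27A (137 bp) and WASHC3 (128 bp). The tight junction genes CLDN16 and OCLN had 154 and 110 bp, RHPN1 229 bp and the nuclear envelope gene SUN2 104 bp.

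TMSB15B, a beta-thymosin that binds free actin, was 1 of only 2 names with more than 1 wide promoter peak. Its peaks of 190 bp (chr4:1984984-1985173, plus strand) and 162 bp (chr4:1984691-1984852, plus strand) had 131 bp between them, and it had no further promoter peak. The other name was Metazoa_SRP, the label of the signal recognition particle RNA family. Its peaks of 182 bp (chr5:57738247-57738428, plus strand) and 171 bp (chr5:57843995-57844165, minus strand) lay on opposite strands, so this label stands for separate copies.

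In carbohydrate metabolism the wide peaks of glycolytic genes ranked among the widest of the list. GAPDH, glyceraldehyde-3-phosphate dehydrogenase, had 710 bp (chr1:77619181-77619890, plus strand) and GPI, glucose-6-phosphate isomerase, 668 bp (chr11:10964309-10964976, plus strand). PGK2, which the RefSeq gene table also lists under the older names PGK and PGK1 of phosphoglycerate kinase, had 420 bp (chr4:12938149-12938568, plus strand). PFKFB3, which sets the level of a glycolysis activator, had 108 bp, GBE1, the glycogen branching enzyme, 105 bp and AMY1A, an amylase, 139 bp. ACSS2, which makes acetyl-CoA from acetate, had 191 bp, ISCU, the scaffold for iron-sulphur clusters, 189 bp, TOMM20, an import receptor of mitochondria, 156 bp and FUCA1, a lysosomal fucosidase, 121 bp.

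Lipid genes included several fatty acid-binding proteins. Besides FABP3, these were FABP5 at 513 bp (chr2:121272584-121273096, plus strand), FABP4, the form of fat cells, at 137 bp, FABP1, the form of liver, at 132 bp and FABP9 at 128 bp. FABP7 was not a member, with a single promoter peak of 2 bp. EXFABP, an extracellular lipocalin of chicken, had 182 bp and CRABP-I, a retinoic acid-binding protein, 128 bp. ETNK1, which starts phosphatidylethanolamine synthesis, had 480 bp (chr1:66479998-66480477, minus strand), and PLPP1, a lipid phosphatase, 438 bp (chrZ:16860927-16861364, minus strand). LPL, the lipase that frees fatty acids from lipoproteins, had 366 bp, VLDLR, the receptor for very low density lipoprotein, 301 bp, and APOB, the main apolipoprotein of such particles, 274 bp. PLTP, which moves phospholipids between lipoproteins, had 156 bp. Genes of lipid synthesis and storage were HMGCS1 of the cholesterol pathway (245 bp), ELOVL1 (189 bp), DEGS1 (129 bp), FAXDC2 (123 bp), CIDEC (177 bp) and G0S2 (102 bp). The lipases PLA2G15 and ABHD2 had 231 and 174 bp, and DHRS3, a retinal reductase, 236 bp.

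Other metabolic enzymes formed a group of 20. PM20D2, a peptidase of the M20 family, had 514 bp (chr3:75810306-75810819, minus strand), and CDO1, which oxidises cysteine, 400 bp (chrZ:73146820-73147219, plus strand). The cytochrome P450 genes CYP2AC1 and CYP4B7 had 390 bp (chr3:108774858-108775247, plus strand) and 381 bp (chr8:22236550-22236930, plus strand), and CYP1B1 had 174 bp. XDH of purine breakdown had 299 bp, TXN, thioredoxin, 263 bp, GCH1 of tetrahydrobiopterin synthesis 248 bp and HMOX2 of haem breakdown 236 bp. DIO2, which activates thyroid hormone, had 232 bp, PANK1 of coenzyme A synthesis 203 bp, GLUL, glutamine synthetase, 202 bp and ARG2, an arginase, 179 bp. The rest of this group were ENPP3 (160 bp), the glutathione-degrading CHAC1 (152 bp), GGACT (132 bp), the carbonic anhydrase CA3B (120 bp), AHCYL2 (114 bp), the metallothionein MT4 (108 bp) and XPNPEP1 (102 bp).

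Transport genes included both receptors of protein uptake in the kidney tubule. LRP2, megalin, had 375 bp (chr7:18736575-18736949, plus strand) and CUBN, cubilin, 162 bp. SLC3A1, the heavy subunit of a renal amino acid transporter, had 194 bp. Other amino acid carriers were SLC38A2 with 389 bp (chr1:31121530-31121918, minus strand), SLC7A5 with 151 bp and SLC38A6 with 131 bp. The mitochondrial carriers SLC25A15 and SLC25A12 had 278 and 159 bp. SLC9A3R2, a scaffold for membrane transporters, had 320 bp, SLC30A9 222 bp, SLC16A6 201 bp, the fructose carrier SLC2A5 108 bp and ABCC5 148 bp. Channel genes were MCOLN2 (297 bp), KCNA3 (246 bp) and the glycine receptor subunit GLRA2 (215 bp), and CHP1, a cofactor of sodium-proton exchangers, had 205 bp.

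Genes of protein synthesis, folding and RNA were led by EEF1A2, the elongation factor form of muscle and neurons, at 656 bp (chr20:9012193-9012848, minus strand). Ribosomal protein genes included RPS12 (289 bp), RPS7 (172 bp), RPL12 (162 bp) and RPL26L1 (140 bp). The chaperone genes HSPA2, DNAJA1 and HSPA8 had 393 bp (chr5:53060076-53060468, minus strand), 373 bp (chrZ:70798039-70798411, plus strand) and 163 bp, and CALR, a calcium-binding chaperone, 228 bp. RNA-binding genes were YBX3 at 412 bp (chr1:79075342-79075753, plus strand) and RBM38 at 398 bp (chr20:11628672-11629069, minus strand). Splicing, export and modification genes were SRSF4 (153 bp), SF3A3 (103 bp), THOC5 (114 bp) and METTL3, which methylates adenosines in RNA (104 bp). Genes of the transcription machinery were POLR3K (284 bp), GTF2B (193 bp) and GTF2A1 (174 bp), and the Integrator-related genes INTS6L and INTS6 had 176 and 112 bp. RNASEH1 had 215 bp and KPNA2, an importin, 103 bp.

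Small non-coding RNA labels gave 7 wide peaks. RNase_MRP and RNaseP_nuc, the RNA parts of a pair of related ribonucleases, had 246 and 154 bp. U3, which guides early processing of ribosomal RNA, had 124 bp, SNORD24, a box C/D guide RNA, 107 bp and gga-mir-3526, a microRNA gene, 116 bp. The family names among them can cover several copies, and the list does not say which copy is meant. Whether these 7 peaks mark capped starts of the named RNAs was not tested.

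Chromatin and transcription factor genes numbered 19. Nucleosome proteins were HMGN4 (333 bp), the linker histone H1-10 (240 bp) and H2A-VIII (174 bp), a histone name that stood on 7 promoter peaks along chromosome 1 on both strands. Developmental regulators included ZEB2 (250 bp), the forkhead genes FOXD2 (241 bp), FOXC2 (219 bp) and FOXD3 (195 bp), and the basic helix-loop-helix genes HAND2 (188 bp), TCF21 (174 bp), HES1 (119 bp) and NEUROD1 (110 bp). NKX6-2 had 120 bp, RIPPLY2 180 bp and the nuclear receptor NR0B1 154 bp. CHD2 (165 bp), a chromatin remodeller, SPEN (103 bp), a repressor of Notch targets, SSBP4 (228 bp) and NABP1 (144 bp), both single-stranded DNA-binding proteins, also belonged to the group. Immediate early and stress genes were FOS (346 bp), MYC (122 bp), ATF4 of the amino acid response (274 bp), GADD45A (185 bp), SGK1 (101 bp), the antiproliferative gene TOB2 (344 bp), NDRG1 (167 bp) and the kinase gene DYRK3 (108 bp).

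Among signals and receptors, ANGPT2, a ligand of the vessel receptor TEK, had 371 bp, SFRP1, which binds Wnt ligands, 370 bp and TNFSF10, a death ligand, 315 bp. Neuropeptide and hormone genes were PENK, the enkephalin precursor (196 bp), SST, somatostatin (180 bp), AVP, the antidiuretic hormone precursor (177 bp), and NPPC, C-type natriuretic peptide (175 bp). Receptors were ACVR2A for activins (209 bp), SSTR1 for somatostatin (196 bp), EPHA5 for ephrins (186 bp), NGFR for neurotrophins (160 bp) and APLNR for apelin (113 bp). BMP4 had 127 bp, GRN 125 bp, the chemokine CCL4 124 bp, the calcium-binding protein S100A6 175 bp and the matrix signal CYR61 109 bp. NOV had 207 bp on chromosome 3. In the RefSeq table NOV is an older name both of CCN2 on that chromosome and of CCN3 on chromosome 2. The label alone does not settle which gene is meant, but the chromosome of the peak is that of CCN2. Neural genes were the adhesion gene LSAMP (334 bp), TMEM35A, a chaperone of nicotinic receptors (319 bp), the RNA-binding gene ELAVL2 (252 bp), PPP2R2B (218 bp), ISLR2 (141 bp), the myelin gene PMP22 (123 bp), PDE1A (119 bp) and the ubiquitin ligase TRIM2 (119 bp). The kinase gene PRKCA had 222 bp and PPP1R14C, an inhibitor of protein phosphatase, 300 bp.

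Matrix genes were led by HTRA1, a secreted protease, at 384 bp (chr6:32232198-32232581, plus strand), with a further promoter peak of 11 bp 865 bp upstream. The fibrillar collagens COL1A1 and COL3A1 had 292 and 254 bp, COL8A1 110 bp, and the laminin chains LAMA3 and LAMA1 158 and 102 bp. TIMP4, a metalloproteinase inhibitor, had 241 bp, and TGM2, which crosslinks proteins, 148 bp. Of clotting genes, F3, tissue factor, had 267 bp, FGA, a fibrinogen chain, 228 bp, SERPINE2 126 bp and SERPINA10 110 bp. Surface proteins were EMB (289 bp), MCAM (231 bp), TM4SF4 (201 bp), SDC4 (184 bp) and CD81 (165 bp), and TINAG and CCDC80 of the matrix had 144 and 126 bp. Immune genes were GNLY, a lytic peptide of killer cells (316 bp), the interferon-induced genes OASL (254 bp) and GBP (205 bp), IRF1 (150 bp), CRTAM (145 bp), TNFAIP2 (123 bp) and CD300LG (122 bp).

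No role was assigned to 20 named genes, among them FAM46A (357 bp), PLEKHO1 (266 bp), RD3L (241 bp), ANKRD13A (234 bp), C15orf48 (227 bp), PPDPF (199 bp), PABIR2, CL2, TRIM7.2, TMCC3, C19orf25, TMEM140, ABHD17B, TMTC2, ARRDC2, TMEM79, CYTL1 and FAM46C (103 to 174 bp). The remaining 39 genes had an Ensembl identifier only, from 104 to 579 bp. The widest were ENSGALG00000014848 with 579 bp (chr3:60899183-60899761, plus strand), ENSGALG00000014857 with 561 bp (chrZ:13596396-13596956, minus strand), ENSGALG00000034772 with 518 bp (chr31:5682287-5682804, minus strand) and ENSGALG00000026553 with 376 bp (chrZ:22173855-22174230, minus strand). A wide promoter peak stood at 2.13% of the 1833 genes named in this way and at 2.89% of the 8604 others.

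Gene lists of tissues and functions were set beside the 2.76% of all labelled genes that had a wide promoter peak. The lists were chosen with earlier results of these data known, so their counts are descriptions with no test. Sarcomere and Z-disc genes had 14 of 57 labelled members with a wide peak (24.6%, interval 15.2 to 37.1). Those 14 were DES, MYBPHL, LDB3, TRIM63, MYH1E, FBXO32, ANKRD2, MYH1C, MYH1A, CSRP3, TMOD4, CAPZA1, TNNI1 and MYH1D. The list is thus broad, since TRIM63 and FBXO32 are ubiquitin ligase genes and CAPZA1 was placed with the cytoskeleton above. Without the fast myosin heavy chain genes the count was 10 of 51, and at a limit of 150 bp it was 8 of 57. The other 43 had narrower promoters, the widest being that of TPM1 at 65 bp, and the median over the list of each gene's widest promoter peak was 17 bp, beside 15 bp over all genes. The 14 peaks ran between 102 and 742 bp, and MYH1D, TNNI1, CAPZA1, CSRP3, TMOD4 and MYH1A were at most 145 bp wide. Of 8 labelled genes of muscle energy supply, FABP3 and MB had a wide peak. In the list of muscle calcium handling and membrane genes, the caveolae gene EHD2 did, 1 of 19. In glycolysis GAPDH and GPI did, 2 of 22, or 3 of 23 when older symbols were matched and PGK2 was added.

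Immediate early and stress genes followed with 7 of 39 (17.9%, interval 8.98 to 32.7), namely FOS, ATF4, GADD45A, MYC, HES1, MT4 and SGK1. The count was 4 at a limit of 120 bp and 3 at a limit of 150 bp. Their list had a median widest promoter peak of 6 bp, below that of all genes, so its members lay at both ends of the range. This was not particular to the list, since the medians for ribosomal protein, cytoskeleton and kidney genes were 5, 6 and 7 bp. Chaperone genes had 5 of 32 (15.6%), and brain genes 6 of 43 (13.95%), which were LSAMP, NEFL, ELAVL2, GLUL, PENK and SST. Kidney genes had 3 of 27 and ribosomal protein genes 5 of 52. Matrix and fibroblast genes had 4 of 36, or 6 of 38 when older symbols were matched. Liver genes had 4 of 43, namely APOB, FGA, FABP1 and SERPINA10, or 2 at a limit of 150 bp. Smooth muscle (CALD1, 1 of 16), cytoskeleton (TMSB15B, 1 of 24) and translation factors (EEF1A2, 1 of 34) had 1 member each. No wide promoter peak stood at any of 33 labelled respiratory chain genes, 32 RNA-binding and splicing genes, 31 ubiquitin and proteasome genes, 22 immune cell genes, 15 endothelial genes or 6 red blood cell genes. The upper bounds of their intervals were 10.4%, 10.7%, 11.03%, 14.9%, 20.4% and 39.03%, all above 2.76%, so none of these absences stood apart from the share over all genes.

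**Figure D2:**
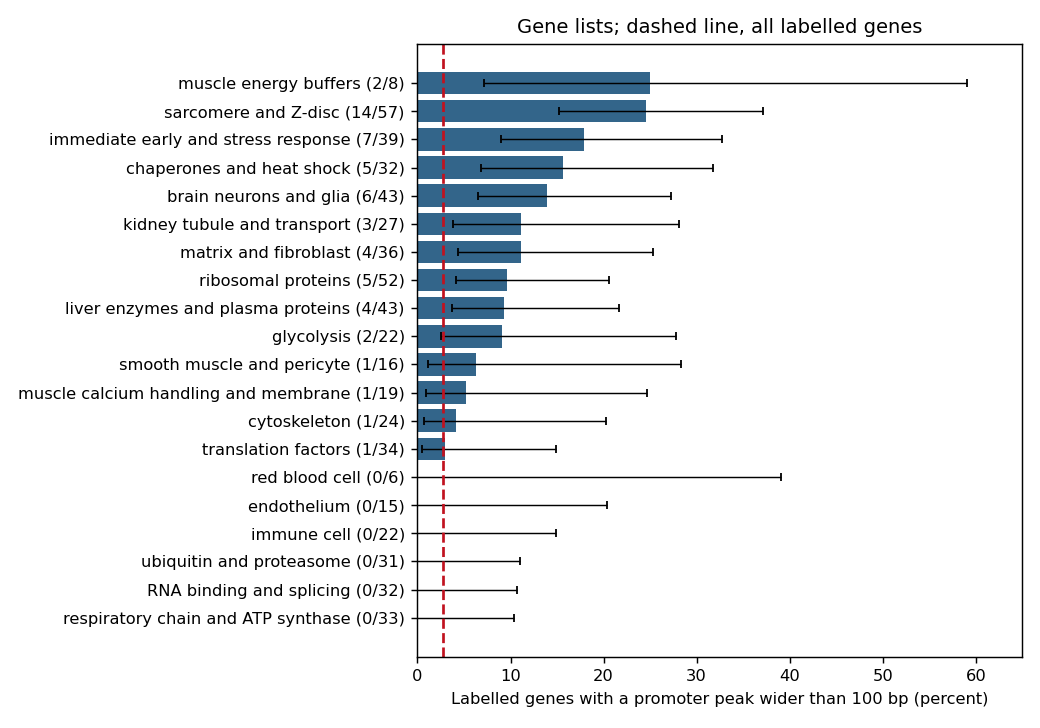
Percent of labelled genes in each list with a promoter peak wider than 100 bp, with 95% Wilson intervals and the counts in parentheses. The dashed line is the 2.76% of all labelled genes, and the sarcomere and muscle energy lists stand highest at 24.6% and 25%.

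Wide promoter peaks were mostly the single promoter peak of their gene. Of the 288 genes, 213 had no other promoter peak (74.0%, interval 68.6 to 78.7), against 3545 of the 10149 genes with no wide peak (34.9%, interval 34.0 to 35.9), and 36% of all labelled genes. Genes with a wide peak averaged 1.54 ± 1.25 promoter peaks, against 2.42 ± 1.63 in the others (SD over genes). The share did not climb evenly with width. Among genes whose widest promoter peak was 51 to 100 bp, 33.4% had a single promoter peak and the mean was 3.13. Single promoters were also the rule at the narrow end, with 91.9% of genes whose widest peak was at most 5 bp. No test was made of these differences, since genes are not replicates, and the part of the caller in them was not tested.

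The wide peaks also lay apart from other peaks on their strand, promoter-labelled or not. Further promoter peaks of the same gene count as neighbours here, so these shares are not independent of the single-promoter share above. No same-strand peak of any kind lay within 100 bp of 262 of the 290 (90.3%, interval 86.4 to 93.2). For promoter peaks of 51 to 100 bp the share was 47.6% and for all promoter peaks 22.3%. The median distance to the next same-strand peak was 5745 bp upstream and 2889 bp downstream for wide peaks, against 103 and 49 bp for the other promoter peaks. The nearest approach was 26 bp for a wide peak and 1 bp for the others. Within 1000 bp, 140 of the 290 wide peaks had a same-strand peak (48.3%), against 89.2% of the other promoter peaks. Within the wide peaks the share varied little with width, from 87.2% at 151 to 200 bp to 93.8% at 101 to 120 bp, while at 81 to 100 bp it was 61.2% (interval 47.2 to 73.6, 49 peaks). The limit of 100 bp was set on width, but widths and neighbours come from the same peak caller. Its part in these shares was not tested.

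**Figure D3:**
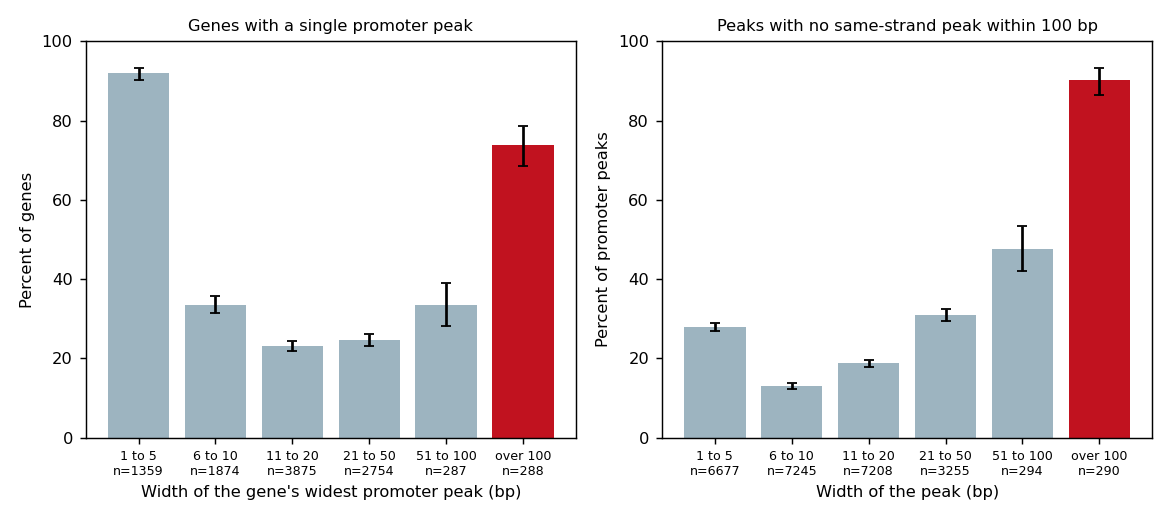
Left, percent of genes with a single promoter peak by the width of the gene's widest promoter peak (bp). Right, percent of promoter peaks with no same-strand peak within 100 bp by the width of the peak (bp); bars are 95% Wilson intervals and the red bars are the wide promoter peaks, at 74.0% and 90.3%, beside 33.4% and 47.6% in the 51 to 100 bp class.

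The 75 genes with a further promoter peak show what stood beside a wide one. In 72 of them such peaks lay on the same sequence and strand, 148 peaks in all, with a median width of 10 bp and quartiles of 6 and 17 bp. Apart from the pair of TMSB15B, the further peaks were no wider than 73 bp, the width of a peak of U3. Upstream of the wide peak lay 100 of them, at a median distance of 276 bp, and downstream 48, at a median of 520.5 bp. Within 500 bp lay 87 and over 1 kb away 55. Among the 70 genes with 1 wide peak and further promoter peaks on its strand, the wide peak was the most downstream in 45 (64.3%, interval 52.6 to 74.5), the most upstream in 20 (28.6%) and between others in 5 (7.14%). In genes with a widest peak of 51 to 100 bp, that peak was the most downstream in 39.3%, the most upstream in 28.3% and between others in 32.5%. The members had fewer promoter peaks per gene, and the part of that number in these shares was not tested.

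At several members the further promoters formed a separate cluster. FEZ1 (chr24:156276-156451, plus strand), an axon growth adaptor, had 7 peaks of 4 to 21 bp upstream of its wide peak, between 1740 and 2102 bp away. RAB27A (chr10:8442621-8442757, plus strand), a GTPase of secretory vesicles, had 6 peaks of 4 to 31 bp, between 8434 and 10732 bp upstream. PFKFB3 (chr1:4157215-4157322, plus strand) had 5 peaks of 5 to 20 bp, between 18408 and 18524 bp upstream, and a peak of 13 bp 153 bp downstream. SUN2 (chr1:50809223-50809326, plus strand) had 5 peaks upstream between 142 and 401 bp away, and OASL (chr12:3637306-3637559, minus strand) 5 between 109 and 173 bp. GNLY (chr22:5263567-5263882, minus strand) had 4 between 112 and 313 bp upstream, and SLC25A15 (chr1:171844630-171844907, minus strand) 4 between 232 and 307 bp. The wide peak of each of these 7 genes, PFKFB3 excepted, was the most downstream of its promoters.

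Other members were arranged the opposite way or around the wide peak. The wide peak of LSAMP (chr1:82040692-82041025, plus strand) was its most upstream promoter, with peaks of 9 and 12 bp 54 and 71 bp downstream and 5 more between 678311 and 678743 bp downstream. ZEB2 (chr7:33415368-33415617, minus strand), a repressor of epithelial genes, had 4 peaks between 2193 and 2607 bp downstream and 3 between 68 and 1070 bp upstream. GGACT (chr1:145387411-145387542, plus strand) had a peak of 14 bp 54 bp upstream and 4 peaks, of 7 to 63 bp, between 87 and 271 bp downstream. TIMP4 had 3 peaks 82597 to 82627 bp upstream, PPP2R2B peaks of 36 and 6 bp 22826 and 28462 bp upstream, and LRP2 a peak of 30 bp 18944 bp downstream. Smaller sets included TNNI1, with peaks of 25, 1 and 12 bp 466, 1055 and 1398 bp upstream, TRIM63 with 27 bp at 356 bp upstream, NPPA with 1 bp at 122 bp upstream, and SST with 13 bp at 148 bp upstream. GLUL had peaks of 1, 3 and 15 bp at 284, 1042 and 4511 bp upstream, and HAND2 peaks of 34 and 6 bp at 175 and 496 bp downstream.

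**Figure D4:**
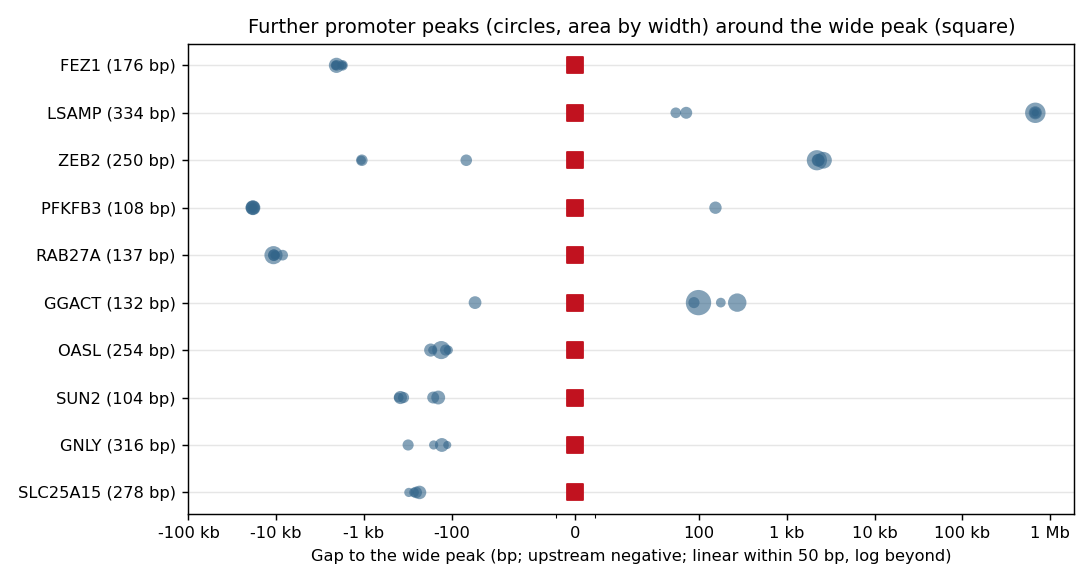
Gap in bp between the wide promoter peak (red square at 0) and each further promoter peak on its strand (circles, area by width), for 10 of the members with 5 or more promoter peaks; H2A-VIII, whose peaks lie on both strands, is not drawn. Upstream gaps are negative, and the axis is logarithmic beyond 50 bp. FEZ1, RAB27A, OASL, SUN2, GNLY and SLC25A15 have further peaks upstream alone, and LSAMP downstream alone.

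For 5 names, further promoter peaks lay elsewhere in the genome. H2A-VIII (chr1:48067155-48067328, plus strand) had 4 peaks of 1 to 4 bp on the minus strand of chromosome 1, and Metazoa_SRP lay on both strands of chromosome 5. NPPC had its wide peak on chromosome 9 (15549395 to 15549569, minus strand) and a peak of 3 bp on chromosome 21, TGM2 its wide peak on chromosome 20 (10367467 to 10367614, plus strand) and a peak of 9 bp on chromosome 32, and CCL4 its wide peak on the plus strand and a peak of 1 bp on the minus strand of chromosome 19. In each case the label joins places that cannot be 1 promoter region.

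The representative position, 1 base inside each peak, was spread widely along the wide peaks. Its median was 48.6% of the width from the 5′ end, with quartiles of 28.7% and 66.0%. In promoter peaks of 51 to 100 bp the median was 48.7%, with quartiles of 28.7% and 73.0%. It lay closer to the 5′ end than to the 3′ end in 151 of 290 wide peaks (52.1%, interval 46.3 to 57.8). The shares of the 2 classes lay further apart at the 3′ end than at the 5′ end, which is a description with no test. In the last 10% of the width it lay in 5 wide peaks (1.72%, interval 0.739 to 3.97), against 30 of 294 peaks of 51 to 100 bp (10.2%, interval 7.24 to 14.2), while the first 10% held it in 21 wide peaks (7.24%, interval 4.78 to 10.8) against 28 (9.52%, interval 6.67 to 13.4). Single members differed. It lay at 6.22% in EHD2, 7.95% in MYBPHL, 11.3% in PM20D2 and 17% in DES, but at 69.0% in EEF1A2, 72.8% in PGK2, 74.2% in FABP5 and 75.6% in GPI.

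Unlabelled peaks downstream of a wide promoter had a higher mean on the strand of the gene, with equal medians on both strands. From 500 to 20000 bp past the widest promoter peak of each gene, the own strand held a mean of 5.19 ± 10.7 unlabelled peaks in genes with a wide peak and 2.32 ± 3.90 in the others (SD over genes), with medians of 2 and 1. The opposite strand held 2.62 ± 4.60 in genes with a wide peak and 1.86 ± 2.65 in the others, with medians of 2 and 1. More peaks lay on the own strand than on the opposite in 145 of the 288 (50.3%, interval 44.6 to 56.1), against 41.2% of the others and 41.4% of all labelled genes. At least 10 lay on the own strand in 35 of the 288 (12.2%, interval 8.87 to 16.4), against 362 of 10149 (3.57%). In windows that ended at 5000 bp the shares with more on the own strand were 41.0% and 25.8%, and in windows to 50000 bp 57.3% and 44.2%. Windows of neighbouring genes can overlap.

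The 35 genes with 10 or more held 918 of the 1496 own-strand peaks counted at genes with a wide peak. The fast myosin genes MYH1E, MYH1A and MYH1C had 102, 77 and 35 own-strand peaks and 1, 5 and 1 on the opposite strand, in windows that do not overlap each other. GAPDH had 42 and 3, PGK2 40 and 5, COL1A1 39 and 3, DES 31 and 6, TNNI1 21 and 8, EEF1A2 20 and 2, and TMOD4 19 and 7. Such counts also stood at related genes with no wide peak. MYH1F had 109 and 9, PKLR 45 and 2 and ACTA1 32 and 9, while MYH1B had 4 and 2. Of the 35, 11 had an Ensembl identifier only, out of 39 such members, among them ENSGALG00000028612 with 61 and 2. Another 9 were muscle genes, out of 22. Lower in the 35 came genes of other roles, such as PPDPF with 15 and 2, OASL with 14 and 12, GBP with 13 and 2, GLUL with 13 and 2 and HAND2 with 10 and 7. FGA had 37 and 34, NEFL 15 and 37 and TMSB15B 6 and 43, so peaks did not favour the strand of the gene everywhere. Other very wide members had few. PM20D2 had none on either strand, BICD2 none and 2, DSP none and 1, and CTNNB1 1 and 3. Across the 22 muscle genes the median was 6 on the own strand, and across the 17 transporter and channel genes 1. Unlabelled peaks wider than 100 bp lay in the own-strand window of 5 member genes (1.74%), against 118 of 10149 others (1.16%).

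**Figure D5:**
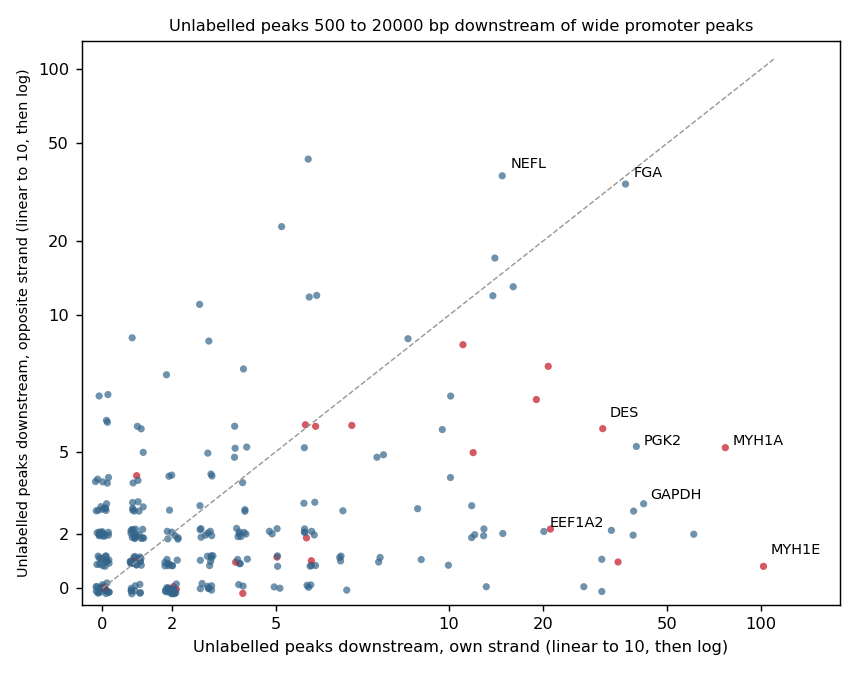
Unlabelled peaks 500 to 20000 bp downstream of the widest promoter peak, on the own strand (x) and the opposite strand (y), for the 288 genes with a wide promoter peak; muscle genes are red, points are shifted slightly so that they do not cover each other, and both axes are linear to 10 and logarithmic beyond. Genes below the dashed line of equality, such as MYH1E with 102 and 1 and GAPDH with 42 and 3, had more peaks on their own strand.

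A peak on the other strand overlapped 16 of the 290 wide peaks, and in 5 of these it was the labelled promoter of another gene. The matching share of other promoter peaks was not computed, and a wide peak spans more bases. Whether 16 is many or few was therefore not tested. POLR3K, a subunit of RNA polymerase III, overlapped 2 promoter peaks of SNRNP25, of 4 and 6 bp. ISCU overlapped a peak of 35 bp of SART3, CAPZA1 a peak of 30 bp of ST7L, VLDLR a peak of 14 bp of ENSGALG00000047067 and PPP2R2B a peak of 7 bp of gga-mir-1576. An unlabelled peak on the opposite strand lay within 500 bp upstream of the representative position in 35 of the 288 genes (12.2%, interval 8.87 to 16.4), against 12.6% of the others, a difference within counting error.

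Wide promoter peaks were spread over the genome much as other promoter peaks were. They lay on 33 chromosomes, 46.9% on chromosomes 1 to 5 and Z, 16.6% on chromosomes 6 to 10 and 36.6% on the smaller ones, against 49.4%, 15.8% and 34.7% of all promoter peaks, each within its interval. Chromosome 1 had 31 of 3375 promoter peaks (0.919%), chromosome 3 had 28 of 1988 (1.41%) and chromosome 5 had 23 of 1495 (1.54%). The share over all promoter peaks was 1.16%. Among chromosomes with at least 10 wide peaks, chromosome 18 had the highest share, 11 of 515 promoter peaks (2.14%), 4 of them at fast myosin genes, and chromosome 2 the lowest, 20 of 2390 (0.837%). None of the 29 promoter peaks of the mitochondrial sequence was wide.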

How the data were processed

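Per the labels, the authors prepared nAnT-iCAGE libraries from total RNA, with unique molecular identifiers. Tools named by the submitters' processing notes are UMI-tools 1.1.4 and STAR 2.7.9a, and the build is GRCg6a. How peaks were called, filtered and labelled as promoters is not given in the sources used here. In the deposited list stand starts, ends, strands, a representative offset, a label and a gene name per peak. Both score columns in the deposited list were 1 in every row, so neither ranked peaks, and depth is unknown. Offsets were read as counted from the lower coordinate: their means mirrored between strands (unlabelled peaks over 50 bp, 43.3% on plus and 56.0% on minus). For promoter peaks over 50 bp the means were closer, 47.8% on plus and 50.9% on minus. Positions from the 5′ end of wide promoter peaks thus rest on a reading seen mainly in unlabelled peaks. Starts are printed 1-based.

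Members were promoter-labelled peaks with end minus start over 100 bp. Gaps count bases between peaks. The widest promoter peak anchored each gene's windows. Members and lists were chosen with earlier results of these data known. By the rule set for names, member genes with a symbol are named, and positions and further promoters are given for the 30 widest members, genes with 2 wide peaks and genes with 5 or more promoter peaks. A few members are counted in the totals but not reported here by name. Of the 288 names, 235 matched current symbols and 3 older symbols in the RefSeq gene table of GRCg7b, used for names only; 232 of 234 member genes compared lay on the same chromosome there. No genome or promoter sequence was used here, so the planned sequence results were not run. The functions for widths, own-strand downstream and opposite-strand upstream counts, and merging were tested on simulated data with planted peaks. Those for gaps between peaks, percent positions within a peak and opposite-strand downstream counts were not tested in this way. Python 3.11.15, numpy 2.4.6, pandas 2.3.3, scipy 1.17.1 and matplotlib 3.10.9 were used. Alternatives were other width limits, assembled chromosomes only, merged neighbours, older symbols, other windows and, chosen after seeing the data, other neighbour distances and subsets of genes.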

Additional observations from a re-analysis of the deposited data

How the results depend on the processing

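The width limit fixed how many members there were. At over 150 bp there were 193 peaks of 191 genes, while limits of 80 and 120 bp moved these counts by less than 1.5 times. Merging promoter peaks of 1 gene within 20 bp raised them to 409 peaks of 404 genes, also by less than 1.5 times. In this larger set the share of genes with a single promoter peak was 63.4%, and that of peaks with no same-strand peak within 100 bp was 79.2%. The second share was 86.1% at a limit of 80 bp, 80.7% for neighbours within 200 bp and 97.2% within 50 bp. Shares of the other genes and peaks were not recomputed after merging or at these neighbour distances. Values from those settings therefore have no matched background. The share with more downstream peaks on the own strand was 41.0% in windows to 5000 bp and 57.3% to 50000 bp. The other 41 settings stayed within the counting interval, or within 1.5 times for counts, among them all for the representative position, chromosome classes and the total over gene lists. Single lists were less stable, and 6 of their counts moved by over 1.5 times. At over 150 bp, sarcomere genes had 8 in place of 14, immediate early and stress genes 3 in place of 7 and liver genes 2 in place of 4. At over 120 bp, immediate early and stress genes had 4. At over 80 bp, muscle calcium handling and membrane genes had 2 in place of 1 and RNA-binding genes 1 in place of 0. No paired analysis was possible because the list has no value per library. Peak heights and depth are unknown, so how width depends on read number was not tested. Sequence results were not run.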
